A study of Mus musculus with 10 samples.

Results

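Transcripts of 10 genes of the gamma c cytokine pathway were followed through 10 mouse RNA-seq libraries, 4 from cells recovered from the femur and 6 from spleen cell cultures. The genes were taken by name from a count table of 46959 genes, and all 10 had a row in it. They were the shared chain Il2rg, the partner chains Il7r, Il2ra, Il2rb, Il4ra, Il21r and Il15ra, the kinase Jak3 and the feedback genes Cish and Socs2. The choice rule uses their names and not their values. The study concerned inhibitors of histone deacetylases (HDAC) and transcription of the immunoglobulin heavy chain locus.

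Each femoral library was a pool of RNA from 3 mice, extracted without culture from cells that the labels call femoral B cells. The 2 control pools came from mice deficient for RAG2 and gamma c. One KOKI pool came from the KOKI line on that same background, and the other KOKI pool from KOKI mice deficient for RAG2 with gamma c intact. By these labels RAG2 deficiency was common to all 4 femoral pools, and gamma c deficiency to 3 of them. By the design text each of the 3 femoral genotypes had 2 pools, whereas the labels of the 4 pools give groups of 2, 1 and 1. Rag2 transcripts were counted in all 4 pools, at 6.92 to 9.32 CPM (counts scaled to a common library total), and which part of the gene is deleted is not given, so this does not check the label. The labels do not spell out KOKI, and they do not give age. Without RAG2, B and T cells cannot rearrange their receptor genes and their development stops early, and without gamma c natural killer (NK) cells and other innate lymphoid cells are also largely missing.

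The splenic libraries came from spleen cells depleted of CD43-bearing cells, which leaves mostly resting B cells, cultured for 2 days with 5 µg/ml of the bacterial lipopolysaccharide LPS. They were 2 cultures from wild-type (WT) BLACK-6 mice with LPS (WT LPS), 2 WT cultures that also received 200 ng/ml of the HDAC inhibitor SAHA at the start (WT LPS+SAHA), and 2 KOKI cultures. Both WT LPS+SAHA libraries carry D3 in their descriptions, against the 2 days of the protocol, so a longer culture with SAHA cannot be told apart from SAHA itself. The titles and the design text give the KOKI cultures as LPS only, but their treatment label names SAHA as well, so they were compared with both WT groups. Among the labels, the numbers in the titles are the sole hint that replicate cultures came from different mice. The KOKI cultures also differed in sex-linked transcripts, given below. The p-values therefore reflect how far these libraries spread within a group, and outside the KOKI cultures that spread may be technical.

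Gamma c, the product of Il2rg, is the signalling chain that the receptors for IL-2, IL-4, IL-7, IL-9, IL-15 and IL-21 share. Each receptor adds its own chain: Il2ra and Il2rb for IL-2, Il4ra for IL-4, Il7r for IL-7, Il15ra with Il2rb for IL-15, and Il21r for IL-21. Jak3 binds gamma c, Jak1 binds the partner chain, and together they phosphorylate STAT proteins, mainly STAT5, but STAT6 after IL-4 and STAT3 after IL-21. STAT5 then induces Cish and Socs2, whose proteins dampen cytokine signalling, so their transcripts are used as a readout of recent STAT5 activity. In B-lineage cells IL-7 drives precursors in mouse bone marrow, and IL-4 and IL-21 act on activated mature cells.

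All 10 genes are protein-coding in GENCODE M21, and their values are sums over all annotated exons, on mm10. Il2ra (chr2:11642807-11693193, plus strand) and Il15ra (chr2:11705290-11734317, plus strand) are neighbours, as are Il4ra (chr7:125552120-125579474, plus strand) and Il21r (chr7:125603429-125633570, plus strand). Il2rb (chr15:78480553-78495066, minus strand) and Il7r (chr15:9506161-9529876, minus strand) share a chromosome but lie far apart. Il2rg is on the X chromosome (chrX:101264378-101268255, minus strand), Jak3 at chr8:71676296-71690575 on the plus strand, Cish at chr9:107296026-107302784 on the plus strand and Socs2 at chr10:95385362-95417180 on the minus strand.

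Dimers of STAT5 recognise the palindrome TTCNNNGAA and STAT6 prefers TTCNNNNGAA, so the promoters of the 10 genes were searched for both words. A palindrome of this kind reads the same on both strands, and matches of the 2 words were counted separately, whether or not they overlap. RefSeq windows on GRCm38.p6, from 250 bases before to 50 bases after an annotated start, were given for 8 of the 10 genes and not used here for Il2rb and Socs2. TTCNNNGAA stood in the windows of 2 genes, Cish and Il7r, and TTCNNNNGAA in the window of none of the 8. Of 32851 such promoter windows, 8.30% held TTCNNNGAA and 6.95% held TTCNNNNGAA. The stretches around the matches are printed because Cish is the pathway's readout gene and Il7r is the 1 gene of the 10 whose splenic libraries all lay below the femoral ones; capitals mark TTCNNNGAA.
Cish, chr9:107296654-107296683, plus strand: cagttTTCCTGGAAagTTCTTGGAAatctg
Il7r, chr15:9529999-9530028, minus strand: gttcaggagcTTCAGGGAAtaccaagatgc
The Cish window held 2 matches separated by 2 bases, an arrangement of at least 2 matches found in 0.457% of all windows. The first began at the annotated RefSeq start, which lies 633 bases downstream of the start of Cish in the count table. The Il7r match began 142 bases before its start. These matches describe letters in the reference, and binding was not measured.

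Library totals ran from 18614742 to 29314068 counts. The second KOKI culture had 8499 counts of Xist, the transcript of the inactive X chromosome, against at most 9 in the other 9 libraries. It had 20 counts of the Y-linked Ddx3y, against at least 1853. The first KOKI culture had 8 counts of Xist and 3610 of Ddx3y, so the KOKI cultures came from mice of different sex. The second WT LPS+SAHA culture had counts for 451 of 1292 olfactory receptor genes, against 126 in the other SAHA culture and at most 47 in the other 8 libraries. The femoral label was not borne out by all B cell markers: Cd79a and Pax5 were at most 0.38 CPM in each femoral pool. Cd79b was at 8.89 to 10.2 CPM. Against at least 1376 CPM in the cultures, the 12 early B markers summed to 234.9 to 297.7 CPM in the femoral pools. Cd93 was the largest of these, at 163 to 218 CPM. The 9 mature B markers summed to 291.3 to 420.4 CPM in the femoral pools. Most of that was H2-Aa, H2-Ab1, H2-Eb1 and Cd37, at 33.1 to 169.6 CPM each. Ms4a1 was at most 0.0946 CPM and Fcer2a at most 0.331 CPM there, and Cr2 had 0 counts. The 11 neutrophil markers summed to between 13569 and 20912 CPM there, and the 9 erythroid markers to between 9273 and 12396 CPM. Dntt, an enzyme of lymphoid progenitors, was at 40.2 to 58.1 CPM in the femoral pools. The femoral pools are therefore called femoral cells from here on. In such mixed samples, fewer cells of a type and less RNA per cell cannot be told apart.

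Il2rg was looked at first, since gamma c status is what sets 1 femoral pool apart from the other 3. Levels are given as CPM scaled by TMM, a normalisation that evens out library composition. Il2rg stood at 10.5 and 7.06 CPM in the 2 control pools, at 9.61 CPM in the gamma c deficient KOKI pool and at 11.2 CPM in the gamma c intact KOKI pool. The gamma c intact pool was the highest, but the 3 pools from deficient mice were not empty of the transcript. Between the 2 KOKI pools the log2 fold change, intact minus deficient, was 0.22 with a 95% interval of -0.45 to 0.88 (edgeR adjusted p = 1). Which part of Il2rg the deficient allele lacks is not given, so a count over the whole gene does not check gamma c status. An annotated gene model on the same strand, Gm20489, shares 728 of the 2387 exon bases of Il2rg and had 0 counts in all 10 libraries. How reads in shared exons were assigned is not given in the sources used here, and its effect on Il2rg was not tested.

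Levels were compared between genes only after division by exon length, as TMM CPM per kilobase (RPKM). In the 6 splenic cultures Il21r was the highest, at 37.8 to 51.0 RPKM, followed by Il2rg at 19.2 to 25.1 and Il4ra at 13.3 to 23.9 RPKM. Il2rg and Il4ra overlapped in these cultures, while Il21r lay above both in every culture. Jak3 followed at 5.07 to 8.01 RPKM and Il2ra, the alpha chain that makes the high-affinity IL-2 receptor, at 1.69 to 2.85 RPKM. The remaining 5 genes were low: Il15ra lay at 0.799 to 1.30, Il2rb at 0.474 to 1.42, Il7r at 0.206 to 1.14, Socs2 at 0.199 to 0.819 and Cish at 0.0348 to 0.196 RPKM. Neighbours in that low group overlapped, except that Socs2 and Cish just failed to meet.

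The order in the femoral pools was different. Il4ra, at 6.13 to 8.75 RPKM, was the highest, followed by Il7r at 3.87 to 6.05 and Il2rg at 2.96 to 4.68 RPKM. Il7r and Il2rg overlapped in range. Il21r at 2.14 to 2.99, Jak3 at 1.80 to 2.89 and Il15ra at 1.19 to 1.94 RPKM also overlapped with their neighbours. The IL-2 receptor chains and both feedback genes were at the bottom: Il2rb spanned 0.104 to 0.398, Cish 0.0770 to 0.319, Socs2 0.101 to 0.264 and Il2ra 0 to 0.166 RPKM.

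**Figure D1:**
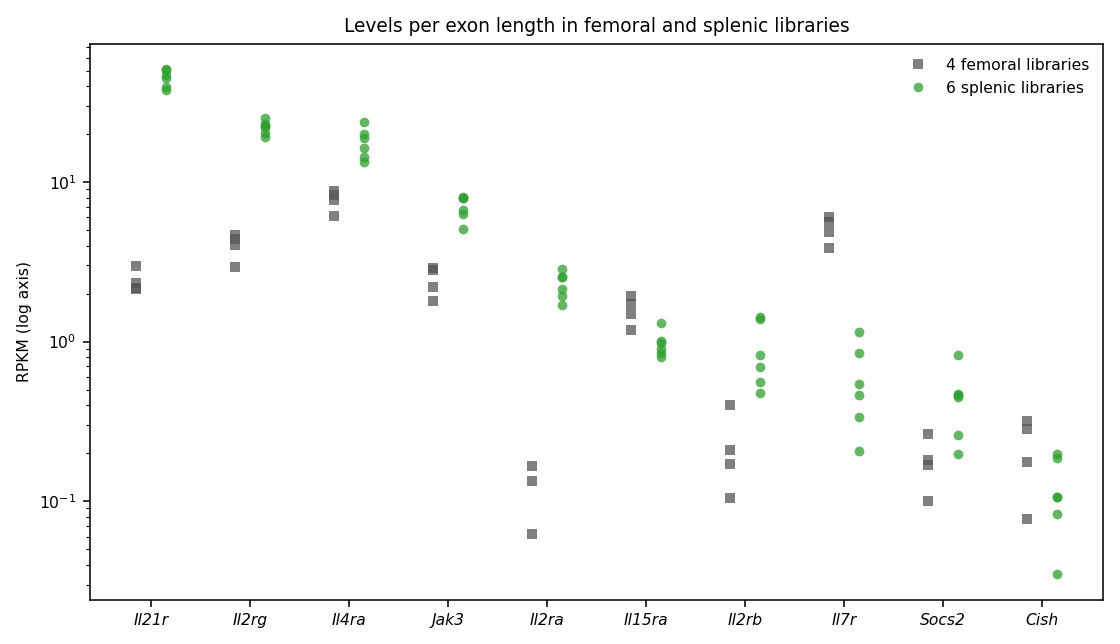
Level per exon length (TMM RPKM, log axis) of the 10 genes in each library, with femoral pools and splenic cultures marked separately; each point is 1 library, and Il2ra in the first control pool, with 0 counts, cannot be drawn on the log axis. Il21r, Il2rg and Il4ra lead in the splenic cultures, with Il21r at 37.8 to 51.0 RPKM, whereas Il4ra and Il7r lead in the femoral pools.

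Splenic cultures and femoral pools differ in tissue, culture, LPS, RAG2 and gamma c genotype and cell makeup all together, so these influences cannot be told apart. Of the 10 genes, 7 were higher in the splenic cultures, 2 were lower and 1, Cish, did not pass the test (edgeR quasi-likelihood test, Benjamini-Hochberg adjusted p under 0.05). Over all 20204 genes tested, 51.3% were called, 25.0% higher and 26.3% lower. The median log2 fold change, spleen minus femur, was 1.31 over the 10 genes and 0.05 over all genes tested. All 6 splenic libraries lay above all 4 femoral libraries for 6 genes and below them for 1, Il7r; over all genes, 16.2% and 21.0% were separated in these directions. With plain library totals in place of TMM, a scaling chosen after seeing the data, the calls over all genes were 3618 higher and 6083 lower against 5054 and 5306 with TMM, and the calls of the 10 genes stayed as they were.

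Il21r, the IL-21 receptor chain, showed the clearest separation. It lay at 7.12, 7.23, 9.93 and 7.80 CPM in the control, the gamma c deficient KOKI and the gamma c intact KOKI pools, in that order, which is kept for femoral values below. In the splenic cultures it ranged from 125.8 to 169.6 CPM with a median of 152.3. Every culture thus lay far above every pool, and the log2 fold change was 4.19 ± 0.17 (SE), or 18.2-fold (edgeR adjusted p = 1.48e-09). Il2ra went with it: it had 0, 32, 8 and 18 counts in the femoral pools, which is 0 to 0.949 CPM, and 9.66 to 16.3 CPM in the cultures. The count of 0 allows up to 0.0872 CPM in that pool, and with so few femoral counts the log2 fold change of 4.67 had a 95% interval of 3.32 to 6.03 (edgeR adjusted p = 5.55e-05).

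Il2rg rose from the 7.06 to 11.2 CPM given above to between 45.9 and 59.9 CPM in the cultures, with a median of 53.2. That is a log2 fold change of 2.42 ± 0.16 (SE), or 5.36-fold (edgeR adjusted p = 9.21e-08). Jak3, the kinase that docks on gamma c, lay at 9.65, 11.7, 15.4 and 15.1 CPM in the femoral pools and at 27.1 to 42.9 CPM in the cultures. Its log2 fold change was 1.46 ± 0.17 (SE, edgeR adjusted p = 1.85e-05). The shared chain and its kinase were therefore both higher in every culture than in every pool, by unequal amounts. Exons of Jak3 are shared in part (7.55% of its bases) with Insl3 on the same strand, which had 0 to 37 counts.

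Il4ra, the IL-4 receptor chain, was at 36.8, 46.0, 49.5 and 52.5 CPM in the femoral pools and at 79.9 to 143.5 CPM in the cultures, with a log2 fold change of 1.15 ± 0.14 (SE, edgeR adjusted p = 2.99e-05). Il2rb, which serves the IL-2 and IL-15 receptors, was scarce in both settings. It had 10, 16, 13 and 26 femoral counts, or 0.290 to 1.11 CPM, and 1.32 to 3.94 CPM in the cultures, with a log2 fold change of 1.87 ± 0.42 (SE, edgeR adjusted p = 0.00263). The groups did not overlap for either gene, although for Il2rb the lowest culture, at 1.32 CPM, was close to the highest pool, at 1.11 CPM.

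Il7r, the IL-7 receptor chain, went the other way. It stood at 12.4, 15.6, 19.4 and 17.9 CPM in the femoral pools and at 0.661 to 3.67 CPM in the cultures, with a median of 1.62. Every culture lay below every pool, and the log2 fold change was -3.37 ± 0.21 (SE), a level 10.3-fold lower in spleen (edgeR adjusted p = 8.2e-08). Il15ra, the chain that presents IL-15, was at 7.64, 8.63, 6.59 and 5.28 CPM in the femur and at 3.55 to 5.79 CPM in the cultures. These ranges overlapped, and its log2 fold change of -0.61 ± 0.21 (SE) passed narrowly (edgeR adjusted p = 0.0315). Without the second WT LPS culture the adjusted p of Il15ra was 0.0686, without the first KOKI culture 0.0677, and without a filter on low counts 0.0593.

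The 2 feedback genes differed in direction of their estimates. Socs2 had 0.959, 1.60, 1.74 and 2.51 CPM in the femoral pools and 1.89 to 7.80 CPM in the cultures, with a log2 fold change of 1.13 ± 0.33 (SE, edgeR adjusted p = 0.0128). Cish had 0.494, 1.13, 1.82 and 2.05 CPM in the femoral pools and 0.223 to 1.26 CPM in the cultures, with a log2 fold change of -1.05 and a 95% interval of -2.16 to 0.06 (edgeR adjusted p = 0.104). Both sets of libraries overlapped for both genes. Without the first WT LPS culture, Cish passed the test as lower in spleen, at a log2 fold change of -1.44 (edgeR adjusted p = 0.0482). Cish rested on 6 to 48 counts per library, so its position is poorly fixed by this depth.

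**Figure D2:**
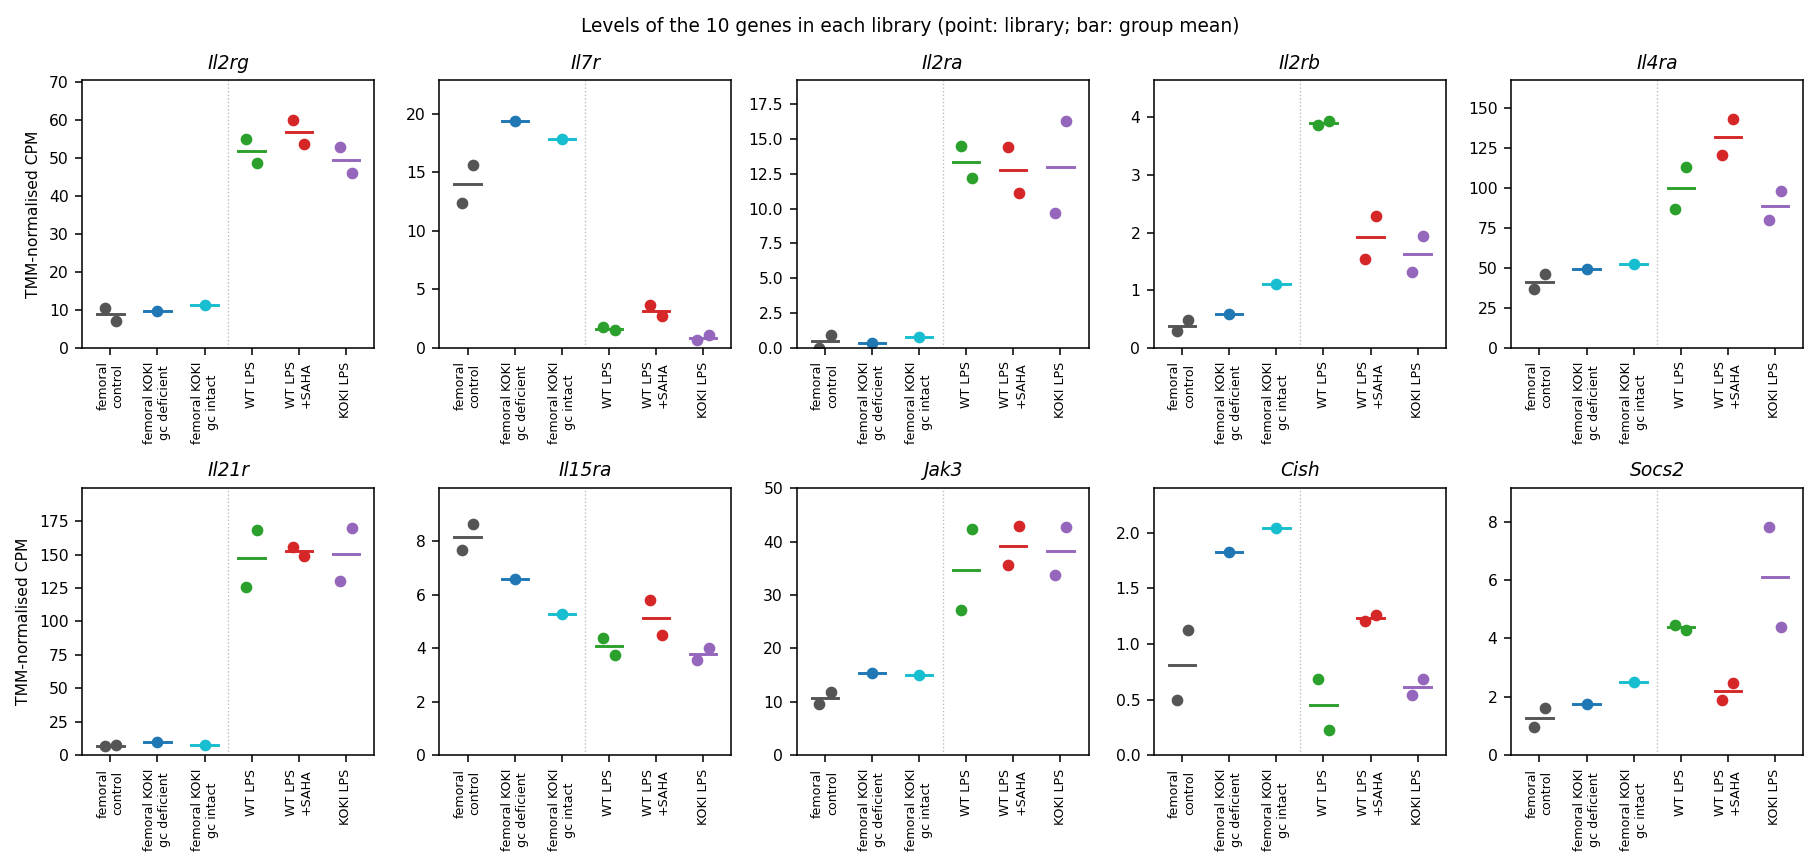
TMM CPM of each of the 10 genes in every library, 1 panel per gene on its own linear axis from 0; points are libraries, bars are group means, gc stands for gamma c, and a dotted line parts femoral pools from splenic cultures. Il7r is the 1 panel in which all 6 splenic cultures (0.661 to 3.67 CPM) lie below all 4 femoral pools (12.4 to 19.4 CPM); 6 panels show the reverse.

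The rest of the pathway was read from a list of 41 genes by role, of which 39 were tested between spleen and femur: 15 were higher in spleen, 13 were lower and 11 did not pass. Among genes with counts in every group the list's median log2 fold change was 0.25, over 34 genes. Of 7 ligand genes, 4 were lower in spleen and none higher, with 2 too scarce to test. Il15 fell from a mean of 14.98 CPM over the femoral pools to 1.22 CPM in the cultures. Il4, Il7 and Tslp, which encodes a cytokine that signals through Il7r, also fell, from femoral means of 1.58, 0.744 and 1.25 CPM; most cultures had 0 counts of them. Il9 had 0 counts in all 10 libraries, Il2 at most 0.186 CPM, and Il21 was counted in 3 splenic cultures only, at no more than 0.688 CPM.

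The partner receptors split. Il9r, the IL-9 receptor chain, rose from a mean of 0.216 to 10.2 CPM (log2 fold change 5.73, edgeR adjusted p = 4.98e-08). Crlf2, the chain that joins Il7r in the TSLP receptor, fell from 19.6 to 13.4 CPM, and Il13ra1, which joins Il4ra in the other IL-4 receptor, from 28.2 to 0.631 CPM. The kinases and STATs split as well. Jak1 and Stat4 rose, with log2 fold changes of 0.54 and 1.63. Jak2, Tyk2, Stat5a and Stat5b fell, with log2 fold changes of -1.11, -0.72, -0.64 and -0.81. Both STAT5 genes were thus lower in the cultures, where gamma c, Jak3 and 4 of the 6 partner chains were higher.

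Of 10 other feedback genes, Socs1, Socs5 and Ptpn2 rose, with log2 fold changes of 1.66, 0.54 and 0.61. Socs6 fell by 0.65 on the log2 scale and 6 did not pass. Of 12 genes that STAT5 is known to induce or repress in lymphoid or myeloid cells, 8 rose and 2 fell. The survival genes Bcl2, Bcl2l1 and Mcl1 rose with log2 fold changes of 1.01, 0.52 and 0.53, and the kinases Pim1, Pim2 and Pim3 with 1.04, 3.67 and 1.08. Ccnd2, a D-type cyclin of activated B cells, rose from 84.7 to 588 CPM, and Lta, which encodes lymphotoxin alpha, from 0.0767 to 4.82 CPM. Ccnd3 fell by 1.38 and Osm, a cytokine gene of myeloid cells, by 4.17 on the log2 scale. Each of these genes has other regulators, and the cell markers moved at the same time: the neutrophil list summed to at most 4.16 CPM in the cultures, against at least 13569 CPM in the femoral pools, and the mature B cell list to at least 3036 CPM, against at most 420.4. Their part in these differences was not tested. With plain library totals 10 pathway genes were higher and 14 lower, and Jak1, Socs5, Ptpn2, Bcl2l1 and Mcl1 no longer passed. The narrower calls also turned on single cultures: Ptpn2 was lost without the first WT LPS culture (edgeR adjusted p = 0.0669) or the second SAHA culture (0.0510), and Socs5 without either SAHA culture (0.0753 and 0.0723), the first WT LPS culture (0.0655) or the second KOKI culture (0.0565). Between WT LPS and the control pools alone, the estimate of Crlf2 was 0.10 on the log2 scale (edgeR adjusted p = 0.807), against -0.66 over all cultures and pools.

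**Figure D3:**
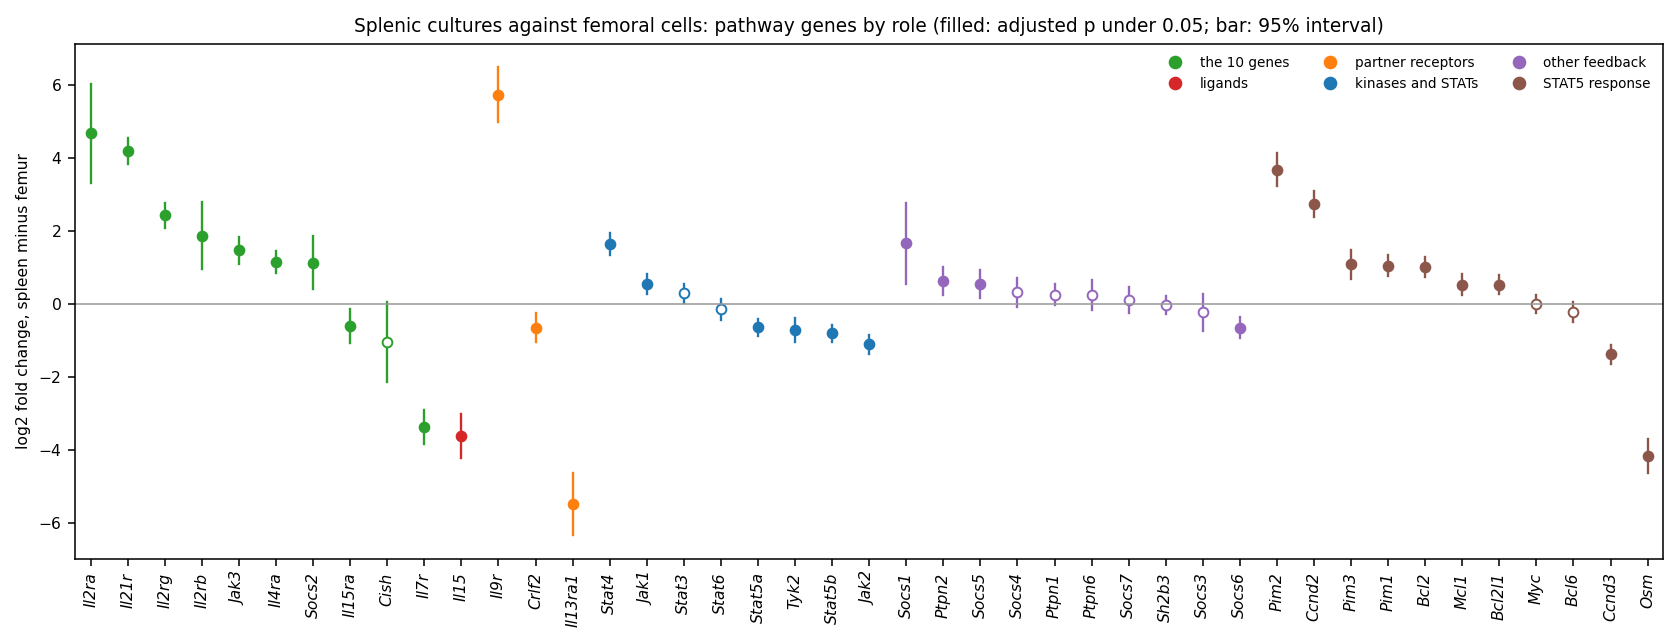
Log2 fold change, splenic cultures minus femoral pools, of the 10 genes and of 33 pathway genes by role; points are estimates from the fit of all 10 libraries, bars 95% intervals, filled points passed an adjusted p under 0.05. Il4, Il7, Tslp, Il21 and Lta, which have a group at 0 counts, are among the tested genes left out; Il2ra, Il21r and Il2rg lead the 10 genes, and Il7r is the lowest of them at -3.37.

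The question of gamma c itself could be put to the 2 femoral KOKI pools, which share the KOKI line and RAG2 deficiency and differ in gamma c. Each is 1 pool, so the spread was taken from the 4 groups with 2 libraries, and each pool was assumed to vary like them. The KOKI pools differed by a chi-square per degree of freedom of 44.1, against 92.6 to 161 within those groups. The borrowed spread may thus be too wide here, and a lack of calls does not show that gamma c has no effect. None of the 10 genes passed (edgeR; 0 at an unadjusted p under 0.05, and 0 by DESeq2). None of the 20204 genes tested passed either (0%), with 229 at an unadjusted p under 0.05 by edgeR and 179 by DESeq2. The median log2 fold change, intact minus deficient, was 0.12 for the 10 genes and 0 for all.

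Of the 2 pools, the intact one had the higher estimate for 6 genes. The feedback genes Cish and Socs2 were at 1.82 and 1.74 CPM in the deficient pool and at 2.05 and 2.51 CPM in the intact pool. Counting error alone covers a wide range for such values: 41 and 48 counts of Cish, and 39 and 59 of Socs2. Their log2 fold changes were 0.16 with a 95% interval of -2.15 to 2.48 and 0.53 with an interval of -0.95 to 2.02. The interval of Cish thus holds large changes in either direction, which were not detectable at this depth and with 1 pool each.

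The receptor chains with the largest estimates had few counts. Il2ra had 8 counts in the deficient and 18 in the intact pool, and Il2rb 13 and 26, giving log2 fold changes of 1.10 with a 95% interval of -1.93 to 4.12 and 0.93 with an interval of -0.94 to 2.80. Il7r, at 19.4 and 17.9 CPM, gave -0.12 with an interval of -1.05 to 0.82. Il4ra gave 0.08 (-0.54 to 0.71), Il21r -0.35 (-1.0 to 0.30) and Jak3 -0.03 (-0.78 to 0.72), and only these 3 and Il2rg had intervals narrower than that of Il7r. Il15ra gave -0.32 (-1.33 to 0.69). Of the 39 other pathway genes tested none passed (edgeR; 1 at an unadjusted p under 0.05, Pim1, and 0 by DESeq2), and the median of those with counts in every group was -0.01. NK markers, whose cells depend on gamma c, summed to 57.0 and 67.1 CPM in the controls, 66.2 in the deficient and 78.3 in the intact KOKI pool. The median log2 fold change of the 9 NK markers tested, intact minus deficient, was 1.42, and none of them passed. Nkg7, at 30.7 to 41.9 CPM, Klrd1, at 9.06 to 21.2 CPM, and Klrk1, at 7.66 to 15.8 CPM, made up most of the femoral sums. Gzma had 0 counts in all 4 pools and Ncr1 was at most 0.27 CPM. From the deficient to the intact KOKI pool Nkg7 went from 38.5 to 41.9, Klrd1 from 18.3 to 21.2 and Klrk1 from 7.66 to 10.6 CPM. That median therefore rests on scarcer markers, such as Klrb1c at 0.284 and 0.911 CPM and Eomes at 0.0473 and 0.694 CPM. Klri2, at 0.662 and 2.04 CPM in these pools, was at 2.73 and 1.88 CPM in the controls. The part of NK cells in the values of the 10 genes was not tested.

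KOKI pools were next set against the control pools in a fit of the 4 femoral libraries. Both control pools were gamma c deficient, whereas gamma c was intact in 1 of the KOKI pools. An effect of KOKI and an effect of gamma c status therefore cannot be told apart in this comparison. None of the 10 genes passed (edgeR; 1 at an unadjusted p under 0.05, Jak3, against 16.2% of all genes, and 0 by DESeq2). Over all 16624 genes tested 0.0301% were called, all 5 of them higher in KOKI. The estimate was positive for 9 genes and negative for Il15ra, with a median log2 fold change of 0.36 over the 10 genes and -0.02 over all genes. With plain library totals the median of all genes shifted to -0.18, so the centre of this comparison depends on the scaling.

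Cish had 17 and 38 counts in the controls, or 0.494 and 1.13 CPM, and 41 and 48 counts in the KOKI pools, or 1.82 and 2.05 CPM. The ranges of Cish did not overlap. Its log2 fold change, KOKI minus control, was 1.26 with a 95% interval of -0.11 to 2.64 (edgeR adjusted p = 0.341). Socs2 was at 0.959 and 1.60 against 1.74 and 2.51 CPM, with a log2 fold change of 0.74 and an interval of -0.46 to 1.94 (edgeR adjusted p = 0.523). For Jak3, at 9.65 and 11.7 against 15.4 and 15.1 CPM, the log2 fold change was 0.52 with an interval of 0.00 to 1.03 (edgeR adjusted p = 0.307). Both controls lay below both KOKI pools for 7 of the 10 genes, these 3 with Il7r, Il2rb, Il4ra and Il21r, and above them for Il15ra; over all genes tested 24.8% and 24.5% were separated in these directions, and none of the 10 passed the test.

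The other receptor chains were as follows. Il7r gave 0.42 (-0.07 to 0.91), Il4ra 0.31 (-0.11 to 0.72) and Il2rb 1.14 (-0.64 to 2.93) in log2 fold change with 95% interval. Il2rg gave 0.24 (-0.43 to 0.91), Il21r 0.31 (-0.31 to 0.92), Il15ra -0.45 (-1.09 to 0.19) and Il2ra 0.27 (-2.86 to 3.41). Il4ra passed as higher, at a log2 fold change of 0.46, when the second control pool was left out (edgeR adjusted p = 0.0495), a fit that called 3456 genes. None of the 36 pathway genes tested passed in the fit with both control pools (edgeR, with 7 at an unadjusted p under 0.05). DESeq2 called 1 of them, and 688 genes in all. Some passed when either control pool was left out, but such a fit keeps 1 control pool, and calls over all genes rose as well.

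In the splenic cultures the effect of SAHA was read from a fit of the 6 cultures in 3 groups. None of the 10 genes passed (edgeR; 3 at an unadjusted p under 0.05, Il2rb, Il4ra and Socs2, against 25.3% of all genes, and 0 by DESeq2), while 4.64% of the 15342 genes tested were called, 0.952% higher and 3.69% lower. The median log2 fold change, SAHA minus WT LPS, was 0.18 over the 10 genes and 0.02 over all. Without a filter on low counts, which adds scarce genes, the median over all genes was 0.54. Scarce genes as a class thus had higher estimates with SAHA, and the bearing of this on Cish and Il7r was not tested. With plain library totals the median over all genes was 0.12, and the calls over all genes were 18 higher and 14 lower, against 146 and 566 with TMM.

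Il2rg, Il21r and Il2ra had the smallest estimates for SAHA. Il2rg was at 55.1 and 48.6 CPM with LPS and at 59.9 and 53.6 CPM with SAHA added, a log2 fold change of 0.16 with a 95% interval of -0.15 to 0.47. Il21r, at 125.8 and 168.7 against 155.9 and 148.8 CPM, gave 0.08 (-0.37 to 0.52), and Il2ra, at 14.5 and 12.2 against 14.5 and 11.1 CPM, gave -0.03 (-0.65 to 0.59). The interval of Il2rg was the narrowest of the 10. Jak3 gave 0.20 (-0.34 to 0.74) and Il15ra 0.36 (-0.34 to 1.06).

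The remaining 5 genes had larger estimates, and all of them but Il4ra had intervals wider than those of the other 5 genes. Il2rb was at 3.87 and 3.94 CPM with LPS and at 1.55 and 2.29 CPM with SAHA, a log2 fold change of -0.99 with a 95% interval of -1.96 to -0.02 (edgeR adjusted p = 0.189). Socs2, at 4.47 and 4.28 against 1.89 and 2.47 CPM, gave -0.97 (-1.83 to -0.10, edgeR adjusted p = 0.157). For both genes the 2 groups did not overlap, but on 27 to 115 counts per culture.

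Il7r went from 1.75 and 1.49 CPM to 3.67 and 2.71 CPM, a log2 fold change of 1.01 (-0.08 to 2.09, edgeR adjusted p = 0.226). Cish had 16 and 6 counts with LPS and 21 and 27 with SAHA, giving 1.48 (-0.25 to 3.22, edgeR adjusted p = 0.262). Il4ra was at 86.8 and 113.2 against 120.9 and 143.5 CPM, giving 0.43 (0.00 to 0.86, edgeR adjusted p = 0.193). Of the 2 STAT5 feedback genes, Cish was thus higher and Socs2 lower in both SAHA cultures than in both LPS cultures, and neither difference passed. In all, 4 of the 10 genes were separated upwards (Il7r, Il4ra, Il15ra and Cish) and 2 downwards, against 26.0% and 30.3% of all genes. Macrophage markers summed to 27.0 and 30.9 CPM in the WT LPS cultures and to 47.0 and 57.2 CPM in the SAHA cultures. In the same order, T cell markers summed to 16.7 and 16.8 against 19.999 and 23.3 CPM, most of it Lck alone, at 10.7 and 11.1 against 13.1 and 15.9 CPM. NK markers, whose cells also carry Il2rb, summed to 3.58 and 3.05 against 3.30 and 5.72 CPM. The part of these cells in the values was not tested.

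Of 35 pathway genes tested for SAHA, 1 rose and 3 fell, and the median of the 34 with counts in every group was -0.04. Bcl6, which encodes a transcriptional repressor and which STAT5 can hold down, rose from 14.9 to 32.7 CPM (log2 fold change 1.16, edgeR adjusted p = 0.0230). Ptpn2, a phosphatase that acts on JAK and STAT proteins, fell from 72.8 to 37.8 CPM (log2 fold change -0.91, edgeR adjusted p = 0.0303). Pim2 fell from 51.3 to 30.04 CPM (edgeR adjusted p = 0.0431) and Ccnd2 from 726 to 436 CPM (edgeR adjusted p = 0.0492). All 4 calls turned on single cultures: 0 pathway genes passed without the first WT LPS culture, or without either SAHA culture, 2 without the second WT LPS culture and 1 without either KOKI culture.

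The KOKI cultures were compared with WT LPS in the same fit, so both comparisons share the WT LPS cultures. None of the 10 genes passed (edgeR; 1 at an unadjusted p under 0.05, Il2rb, against 17.5% of all genes, and 0 by DESeq2), against 4.08% of the genes tested, 2.25% higher and 1.83% lower. Il2rb was at 1.32 and 1.94 CPM in the KOKI cultures against 3.87 and 3.94 CPM in WT LPS, a log2 fold change of -1.24 with a 95% interval of -2.22 to -0.26 (edgeR adjusted p = 0.177). Il7r, at 0.661 and 1.09 against 1.75 and 1.49 CPM, gave -0.87 (-2.01 to 0.27). For these 2 chains, and for no other of the 10 genes, the KOKI cultures all lay below the WT LPS cultures, a separation seen in 25.7% of all genes tested; 0 of the 10 lay above, against 21.4%. NK cells also carry Il2rb, and NK markers summed to 0.881 and 2.10 CPM in the KOKI cultures against 3.58 and 3.05 CPM in WT LPS, and T cell markers to 11.4 and 10.96 against 16.7 and 16.8 CPM; their part was not tested.

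In KOKI against WT LPS the other 8 genes had estimates nearer 0. Il2rg was at 52.7 and 45.9 CPM in KOKI and gave a log2 fold change of -0.05 (-0.35 to 0.26). Il21r gave 0.05 (-0.40 to 0.50), Il4ra -0.15 (-0.57 to 0.28), Il2ra -0.02 (-0.64 to 0.60), Jak3 0.16 (-0.38 to 0.70) and Il15ra -0.09 (-0.79 to 0.62). Socs2, at 7.80 and 4.40 CPM in KOKI, gave 0.51 (-0.32 to 1.33), and Cish, on 13 and 12 counts, gave 0.47 (-1.30 to 2.23). The median over the 10 genes was -0.03, and -0.02 over all genes.

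Against WT LPS+SAHA, the match that the treatment label of the KOKI cultures would call for, 2 of the 10 genes passed, 1 in each direction. Over all genes 23.7% were called, 14.1% higher and 9.64% lower, so 2 of 10 is near the background. With plain library totals the calls over all genes were 1203 higher and 1390 lower, against 2160 and 1479 with TMM. The median over all genes then moved from -0.03 to -0.10, and the same number of the 10 genes was called. Without a filter on low counts that median was -0.997, and the bearing of this on the scarce Il7r was not tested. Il7r was at 0.661 and 1.09 CPM in KOKI and at 3.67 and 2.71 CPM in WT LPS+SAHA, a log2 fold change of -1.88 ± 0.50 (SE), or 3.68-fold lower (edgeR adjusted p = 0.0296). Socs2 was at 7.80 and 4.40 CPM in KOKI and at 1.89 and 2.47 CPM in WT LPS+SAHA, a log2 fold change of 1.47 ± 0.38 (SE), or 2.78-fold higher (edgeR adjusted p = 0.0268). The groups did not overlap for either gene; such separation was seen in 32.9% of all genes upwards and 32.7% downwards, and in 1 and 5 of the 10.

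Both calls depended on single cultures. Without the first SAHA culture the adjusted p was 0.132 for Il7r and 0.101 for Socs2, and without the first KOKI culture 0.132 and 0.146. Il7r was also lost without the second SAHA culture (0.0566) or the second KOKI culture (0.0564), the library with the Xist counts. Il4ra, at 79.9 and 98.1 against 120.9 and 143.5 CPM with a log2 fold change of -0.58 (-1.01 to -0.15), just missed (edgeR adjusted p = 0.0561). It passed without the first or the second WT LPS culture, at 0.0433 and 0.0459, and by DESeq2, at 0.0247, which called 3 of the 10 genes. Of the other 7 genes none reached an adjusted p under 0.05, and Il2rg, the nearest of them, had 0.289; Cish was at -1.02 (-2.73 to 0.70), Il15ra at -0.45 (-1.16 to 0.26) and Il2rb at -0.25 (-1.25 to 0.74).

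**Figure D4:**
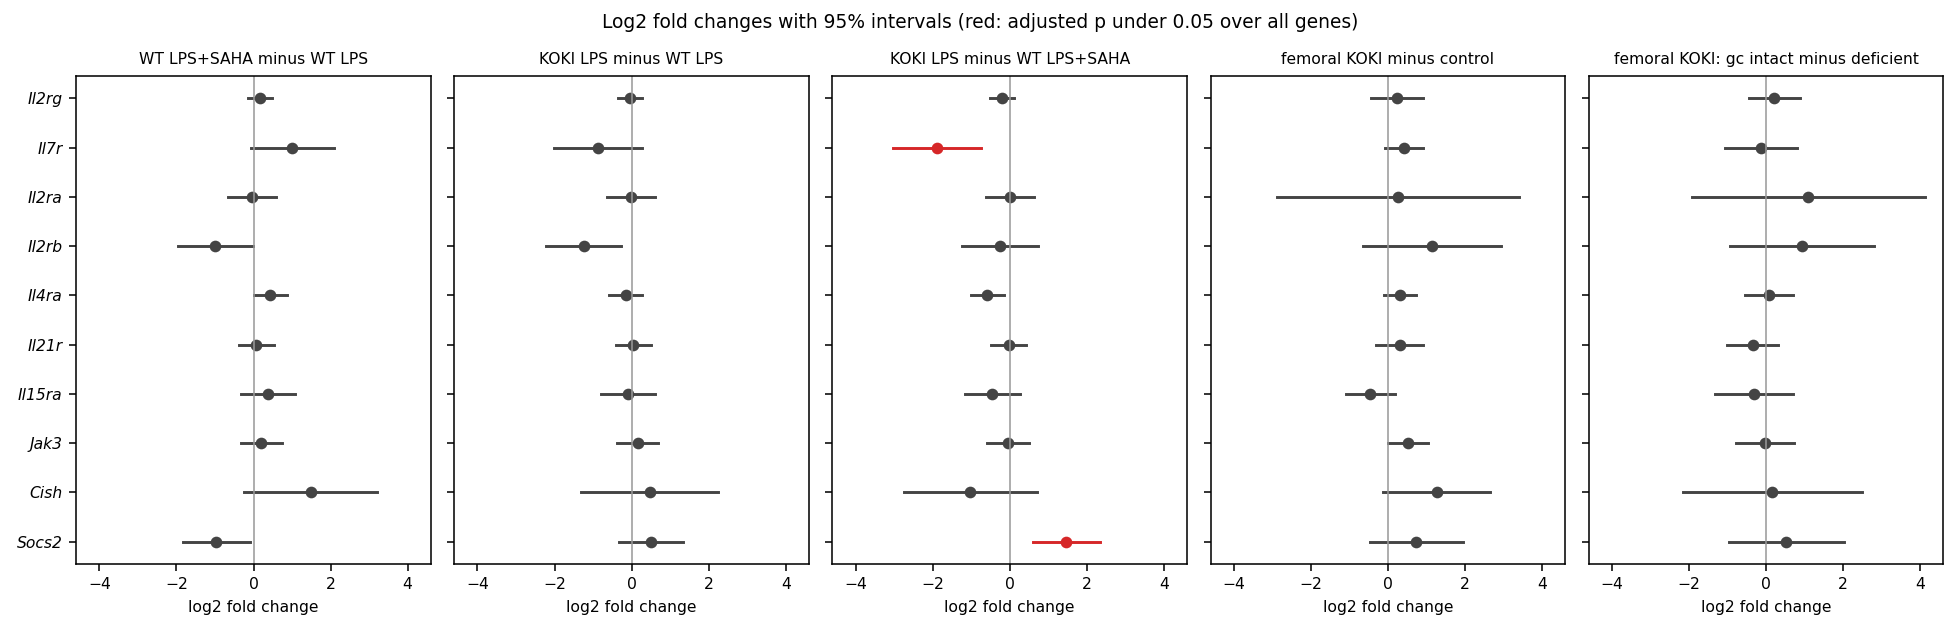
Log2 fold change with its 95% interval for each of the 10 genes in 5 comparisons, 1 panel each (gc stands for gamma c); red marks an adjusted p under 0.05. In these panels 2 points are red, Il7r (-1.88) and Socs2 (1.47) in KOKI against WT LPS+SAHA, and Il2ra has the widest interval in both femoral panels, -2.86 to 3.41 and -1.93 to 4.12.

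Of 35 pathway genes tested in KOKI against WT LPS+SAHA, 6 rose and 5 fell, and the median of the 34 with counts in every group was 0.03. Socs3, the feedback gene of STAT3, rose from 6.11 to 29.1 CPM (log2 fold change 2.23, edgeR adjusted p = 0.00627). The kinase genes Pim1 and Pim2 rose with log2 fold changes of 1.11 and 1.01, Ptpn2 with 0.83, Bcl2l1 with 0.50 and Myc with 0.45. Lta fell from 9.51 to 0.925 CPM (log2 fold change -3.40, edgeR adjusted p = 0.00326). Bcl6, Socs5, the adaptor Sh2b3 and Stat5a fell with log2 fold changes of -1.32, -0.96, -0.61 and -0.49. Bcl6, Ptpn2 and Pim2 had moved the other way with SAHA in WT cultures; the comparisons share the SAHA cultures. Socs3, Pim1, Pim2, Lta and Bcl6 passed in all 13 other settings. Of these 13 settings, Myc was lost in 8, Bcl2l1 and Stat5a in 7 each, Sh2b3 in 4, Ptpn2 in 2 and Socs5 in 1.

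Whether KOKI acts differently in the 2 settings was tested in the fit of all 10 libraries. The measure was the KOKI effect in spleen minus that in the gamma c deficient femoral pools. The femoral effect rests on 1 KOKI pool against 2 control pools. The splenic effect was taken against WT LPS only, although the treatment label of the KOKI cultures names SAHA. None of the 10 genes passed (edgeR; 1 at an unadjusted p under 0.05), against 0.327% of 20204 genes. The lowest adjusted p was that of Il7r, whose difference in log2 fold change was -1.38 ± 0.52 (SE, edgeR adjusted p = 0.405).

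As a description, the genes whose profiles over the 10 libraries were most like those of 4 members were found by the root mean square (RMS) difference in centred log2 CPM. Nearest to Il2rg, whose profile spanned 3.07 on the log2 scale, were Mif4gd (0.14), Hmgn3 (0.19) and B3gnt5 (0.20). Nearest to Il7r, with a span of 4.71, were Cyp27a1 (0.26), Plekhg5 (0.29) and Arl4c (0.32). Cish, with a span of 2.80, had looser neighbours in A730061H03Rik (0.40), Adcy4 (0.42) and Fhod1 (0.42). Socs2, with a span of 2.92, had Nup37 (0.25), Tex30 (0.27) and Ece2 (0.27). The neighbours of Il2rg and Il7r were nearer, relative to those spans, than those of Cish.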

How the data were processed

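RNA-seq was measured in 10 mouse libraries, made with the TruSeq Stranded Total RNA kit from 500 ng of RNA per the labels' protocols. The authors deposited raw counts of reads per gene, with a gene length column in bases. Alignment with STAR 2.4.0a to mm10 and counting with featureCounts (Subread 1.4.6-p1) are named per the submitters' processing notes; neither strand setting nor the treatment of ambiguous reads is stated in those sources. Spike-in and phiX entries (100, with 1 to 17 counts per library) were left out.

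Groups were taken from the labels. Tests used edgeR 4.0.16 in R 4.3.3: TMM, filterByExpr (minimum count 10, minimum total 15), the quasi-likelihood F test and Benjamini-Hochberg adjustment over all genes tested, called under 0.05. The 3 splenic comparisons came from a fit of the 6 splenic libraries, femoral KOKI against control from the 4 femoral libraries, and the others from all 10. CPM in the text are TMM CPM, except that single cell markers and marker sums use plain library totals. RPKM divide TMM CPM by the deposited length. Intervals of fold changes are at 95%. The limit given for a count of 0 is that of 3 counts; such limits cover counting error only, since the reads carry no molecular identifiers. For some comparisons the test was also run on counts simulated with its own fitted spread, which cannot check whether that spread is right.

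The 10 genes, the 41 pathway genes and the marker lists were chosen with earlier results of these data known; some results are not reported here. All 10 genes are named in every comparison, pathway genes where called, and for 4 members the 3 genes with the nearest profile. Alternatives were RLE normalisation, DESeq2 1.42.0, no filter (at least 1 count), other sets of libraries, a replicate block, and leaving out each library; plain library totals were added after seeing the data. Pairs of libraries within a group differed by a chi-square per degree of freedom of 92.6 to 161, and the femoral KOKI pools by 44.1, so none were copies. Figures were drawn with matplotlib 3.10.9.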

Additional observations from a re-analysis of the deposited data

How the results depend on the processing

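Over the 10 genes, 6 comparisons and their alternatives, 750 fold changes were recomputed: 728 kept their direction where called and their side of the threshold, 12 lost it, 10 gained it and 0 reversed. A further 38 of the 728, none called in either setting, changed sign, with estimates of at most 0.47 on the log2 scale. For SAHA in WT cultures 1 of the 10 genes passed with a replicate block in place of 0, Il4ra (log2 fold change 0.44, edgeR adjusted p = 0.0144), and none when any 1 culture was left out. In KOKI against WT LPS+SAHA 1 gene passed in the fit of all 10 libraries in place of 2, and 0 to 3 when 1 culture was left out. Socs2 was lost there in that fit (edgeR adjusted p = 0.0657), with a replicate block (0.0516) and in the 4 cultures alone (0.0505), and Il4ra passed in RLE (0.0482), without a filter (0.00774), with the block (0.00786) and in the 4 cultures alone (0.0348). In femoral KOKI against control 0 to 1 genes passed when 1 pool was left out. The block changed no other call of the 10 genes. The replicate numbers give 2 pairs per comparison and the labels do not tie them to animals; the deviations of same-numbered libraries correlated at 0.22 for WT LPS with WT LPS+SAHA, 0.058 for WT LPS with KOKI and 0.053 for WT LPS+SAHA with KOKI over 20204 genes.

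Counts over all genes moved more than those of the 10. SAHA called 712 genes, 0 to 290 with 1 culture left out, 0 in the 4 cultures alone, 32 with plain totals, 211 in all 10 libraries, 1721 by DESeq2, 1970 without a filter and 3413 with the block. KOKI against WT LPS called 626, 270 to 708 with 1 culture left out and 421 to 1313 otherwise. KOKI against WT LPS+SAHA called 3639, 1703 to 3463 with 1 culture left out and 2439 to 4269 otherwise. Femoral KOKI against control called 5, 13 to 3456 with 1 pool left out, 688 by DESeq2 and 662 without a filter, and 0 on the matched gamma c deficient background. Gamma c intact against deficient called 0, or 54 without a filter, and spleen against femur 10360, or 8568 to 10331 otherwise. The causes were not tested. Depth limits Cish, Il2ra, Il2rb and Socs2 most, whose femoral counts were 17 to 48, 0 to 32, 10 to 26 and 33 to 59.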
